A study of Chlamydomonas reinhardtii with 20 samples.

Results

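The comparison set 2 complemented lines of the Chlamydomonas reinhardtii heme oxygenase mutant hmox1, named ho1C1 and ho1C2, against the wild type 4A+ after 4 h of white light without biliverdin (BV). The samples were chosen by their labels alone, which give the strain, the BV dose and the time in light, and they make up 6 of the 20 libraries, 2 for each strain. The question was what complementation left different from wild type, in each line and in both. All cultures were grown heterotrophically on acetate medium in darkness, in 0.5% methanol, which carried 0.1 mM BV in the BV-fed groups. All but the dark samples were then moved to light. The other groups used were both lines without BV before light and at 0.5 h, hmox1 at 4 h with and without BV, and 4A+ at 4 h with BV, with 2 libraries each. The labels give 0.5 h as the only light time in the treatment protocol, and the 4 h time comes from the label of each sample. They do not say how the complementing gene was driven or whether each line is a single clone, and 4A+ is the only wild type.

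Heme oxygenase opens the heme ring and releases biliverdin, the parent molecule of the linear tetrapyrroles called bilins. In plants, plastid heme oxygenase supplies the bilin chromophore of phytochromes. Chlamydomonas has no phytochrome, and its bilins have been studied as signals between chloroplast and nucleus when dark-grown cells meet light. A mutant without the enzyme can be given BV from outside, whereas a complemented line is meant to make its own.

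Transcript levels are the deposited values, whose unit is not named. They were read as RPKM (reads scaled by gene length and by the reads of the library). Genes are named by their IDs, because neither the table nor the RefSeq gene table pairs them with names or functions, so no function is given for any of them and the transcript of the heme oxygenase gene itself was not analysed here. Of 17737 IDs, 13871 had at least 1 RPKM in at least 2 libraries and were tested. Differences are given on the log2(RPKM + 1) scale, which understates the change of genes near or under 1 RPKM. A gene was called when the adjusted p of limma, which moderates each gene's spread by that of all genes, was under 0.05 and the difference was at least 2-fold. Replicates of the 6 libraries correlated at 0.997 to 0.9979, and relative depth, read from the steps between low values, differed 3.06-fold, lowest in ho1C2 replicate 2 and highest in ho1C1 replicate 2. The labels call the replicates biological without saying how the cultures were separated, so the p-values measure the spread between these samples. RNA came from whole cultures, where a higher level per cell and a larger share of expressing cells cannot be told apart.

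Both lines differed from 4A+ mainly by transcripts that were more abundant. In ho1C1, 558 genes were higher (4.02% of those tested) and 87 were lower (0.627%). In ho1C2, 790 genes were higher (5.7%) and 113 were lower (0.815%). Both lines shared 457 higher genes (3.29%) and 68 lower genes (0.49%), and no gene was called in opposite directions. The 2 comparisons share the 4A+ libraries, so an unusual value there moves both lines together. The shared calls were 81.9% of the higher and 78.2% of the lower genes of ho1C1, and 57.8% and 60.2% of those of ho1C2. At 4-fold or more, 53 genes were higher and 13 lower in both lines.

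The excess of higher genes depended in part on scaling. Over all tested genes the median difference from 4A+ was 0.18 (log2) in each line. The 100 most abundant genes took 49.82% to 52.98% of the summed RPKM in the 4 line libraries, against 53.6% and 54.89% in the 4A+ libraries. With median-ratio factors, which divide each library by its median ratio to the mean library, those medians became -0.01 and -0.03. The calls were then 386 higher and 133 lower in ho1C1, 542 and 199 in ho1C2, and 313 and 114 in both. The higher share of all shared calls was 87% with the values as deposited and 73.3% with the factors. The genes named here kept their direction with the factors, and Cre06.g305900 lost its call in ho1C1.

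**Figure D1:**
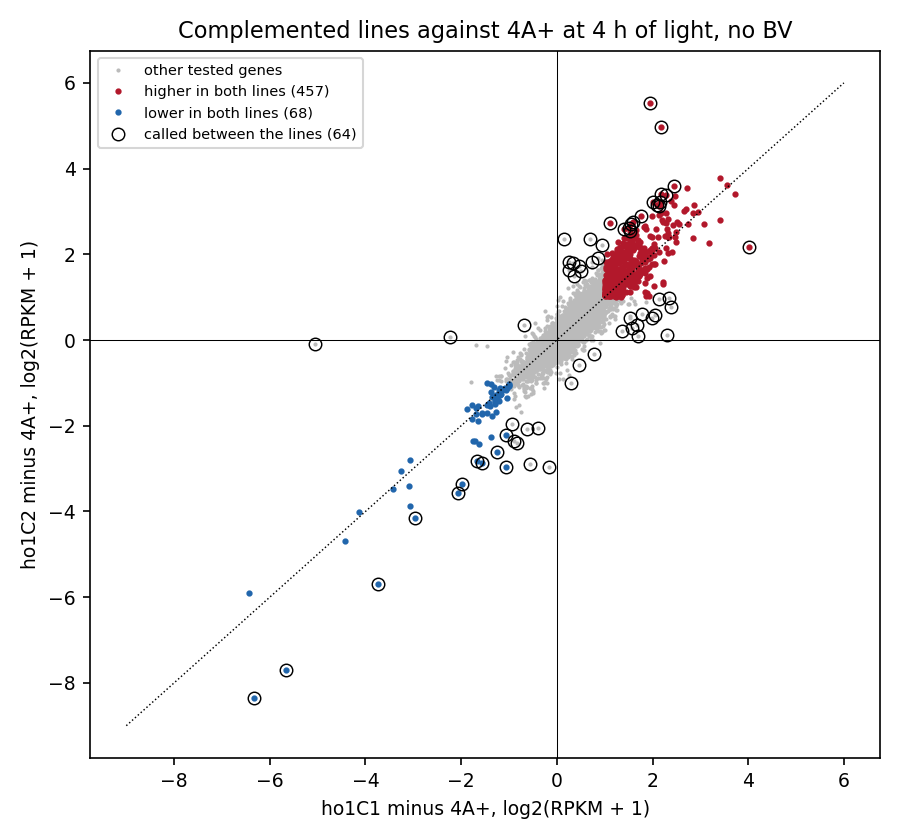
Log2 difference from 4A+ in ho1C1 (horizontal) and ho1C2 (vertical) for the 13871 tested genes at 4 h without BV, on the log2(RPKM + 1) scale. Red and blue points are the 457 genes higher and the 68 lower in both lines, circles are the 64 genes called between the lines, and the dotted line marks equal differences. Both axes share the 4A+ libraries, so the alignment along the diagonal is not a result.

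Among the genes lower in both lines, several were abundant in 4A+. The most abundant of them, Cre04.g223100, had 20.96 and 20.33 RPKM in ho1C1 and 4.15 and 4.59 RPKM in ho1C2, against 1753.88 and 1727.62 RPKM in 4A+. Both lines were far below wild type with no overlap, and ho1C2 was also below ho1C1. The log2 difference from 4A+ was -6.33 in ho1C1 (SE 0.09, adjusted p = 6.89e-19) and -8.34 in ho1C2 (SE 0.09, adjusted p = 5.33e-21, limma). The hmox1 mutant had 18.72 and 15.34 RPKM, a level close to that of ho1C1. BV-fed 4A+ had 128 and 119.61 RPKM, below unfed 4A+ and above both lines.

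Cre17.g734700 had 1.42 and 1.28 RPKM in ho1C1 and 2.78 and 2.12 RPKM in ho1C2, against 199.7 and 207.8 RPKM in 4A+. All 4 line libraries were near the floor, and the differences were -6.45 in ho1C1 and -5.9 in ho1C2 (SE 0.12 in each; adjusted p = 4.43e-17 and 7.52e-17, limma). Cre03.g162800 had 4.15 and 3.67 RPKM in ho1C1 and 0.1 and 0.28 RPKM in ho1C2, against 240.75 and 251.1 RPKM in 4A+. Here ho1C1 kept a low level while ho1C2 was almost without the transcript (differences -5.65 and -7.7, SE 0.1 in each; adjusted p = 1.82e-17 and 7.95e-20, limma). Cre16.g662600 followed the same order, with 5.42 and 5.53 RPKM in ho1C1, 0.51 and 0.86 RPKM in ho1C2, and 79.78 and 90.87 RPKM in 4A+. With BV, 4A+ itself had only 1.15 and 0.75 RPKM of Cre03.g162800 and 4.65 and 4.52 RPKM of Cre16.g662600. It kept 170.77 and 193.4 RPKM of Cre17.g734700.

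Cre03.g198250 and g18140 were low in both lines while the mutant was much nearer to wild type. Cre03.g198250 had 34.35 and 36.35 RPKM in ho1C1, 28.84 and 30.35 RPKM in ho1C2, and 511.01 and 518.33 RPKM in hmox1, against 759.97 and 807.52 RPKM in 4A+. Against hmox1 itself, the log2 difference was -3.83 in ho1C1 (adjusted p = 1.35e-16) and -4.08 in ho1C2 (adjusted p = 2.24e-17, limma). The transcript was at 24.34 to 32.7 RPKM in the 8 dark and 0.5 h libraries of the lines too. g18140 had 86.95 and 95.58 RPKM in ho1C1, 50.99 and 51.37 RPKM in ho1C2, and 563.4 and 581.09 RPKM in hmox1, against 741.8 and 797.42 RPKM in 4A+. Its log2 difference from hmox1 was -2.64 in ho1C1 (adjusted p = 3.78e-12) and -3.46 in ho1C2 (adjusted p = 4.57e-14, limma). Neither gene therefore returned toward wild type in the complemented lines, and both stood farther from it there than in the mutant. Cre10.g423550 was also lower in the lines than in hmox1, at 0.75 and 0.94 RPKM in ho1C1, 1.1 and 1.09 RPKM in ho1C2, 4.15 and 3.19 RPKM in hmox1, and 15.73 and 17.4 RPKM in 4A+. There hmox1 was itself well below wild type.

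**Figure D2:**
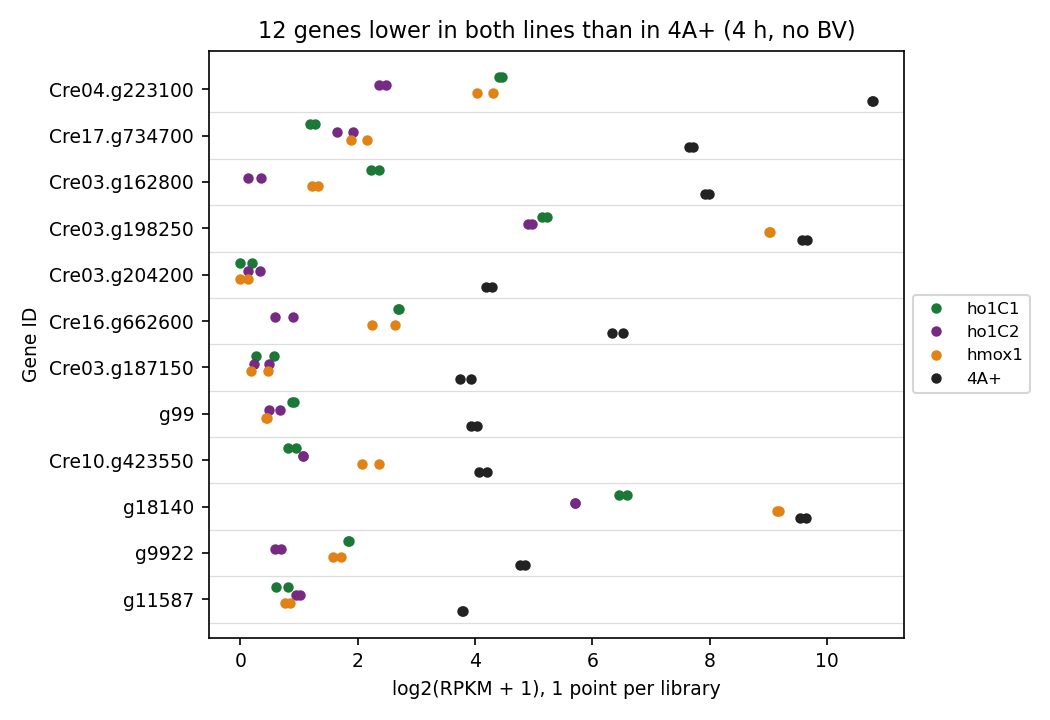
Levels of the 12 genes lower in both lines, ranked by the smaller of their 2 line differences, as log2(RPKM + 1), at 4 h without BV. Each point is 1 library, and rows within a gene are ho1C1, ho1C2, hmox1 and 4A+ from top to bottom. In all 12 genes the 4 line libraries lie below both 4A+ libraries, while Cre03.g198250 and g18140 in hmox1 lie close to 4A+.

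The remaining 5 genes of the 12 were at 0 to 2.61 RPKM in the lines, against 12.41 to 27.69 RPKM in 4A+. Cre03.g204200 had 0 and 0.15 RPKM in ho1C1 and 0.26 and 0.09 RPKM in ho1C2, against 18.57 and 17.11 RPKM in 4A+. Cre03.g187150 had 0.48 and 0.21 RPKM in ho1C1 and 0.41 and 0.17 RPKM in ho1C2, against 12.41 and 14.21 RPKM in 4A+. These 2 genes were under 0.5 RPKM in all 16 libraries of hmox1, ho1C1 and ho1C2, in dark and light and with and without BV, while all 4 libraries of 4A+ had at least 5 RPKM. The others were g99 (differences -3.09 in ho1C1 and -3.4 in ho1C2), g9922 (-2.96 and -4.16) and g11587 (-3.07 and -2.8), none of which overlapped with 4A+.

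Among transcripts higher in both lines, the reverse pattern of presence and absence was met once. g14626 had 14.52 and 13.91 RPKM in ho1C1 and 14.66 and 14.89 RPKM in ho1C2, against 0.29 and 0.29 RPKM in 4A+. It was the 1 gene with at least 5 RPKM in all 16 libraries of the mutant and its lines and under 0.5 RPKM in all 4 libraries of 4A+. The difference was 3.56 in ho1C1 (adjusted p = 8.26e-16) and 3.61 in ho1C2 (adjusted p = 3.66e-16, limma; SE 0.09 in each). Cre07.g339300 came close to that pattern, with 6.29 and 6.74 RPKM in ho1C1 and 7.03 and 7.25 RPKM in ho1C2, against 0.06 and 0.03 RPKM in 4A+, but it was at 1.8 to 2.08 RPKM in the lines after 0.5 h of light. Its level in the dark was 18.28 to 20.75 RPKM in the lines.

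More abundant genes rose as well. g2381 had 127.11 and 137.15 RPKM in ho1C1 and 153.49 and 117.72 RPKM in ho1C2, against 15.4 and 16.91 RPKM in 4A+ (differences 2.96 and 2.98, SE 0.11 in each; adjusted p = 4.27e-12 and 2.15e-12, limma). g6252 had 53.1 and 56.89 RPKM in ho1C1 and 45.93 and 42.41 RPKM in ho1C2, against 3.1 and 3.35 RPKM in 4A+. In both genes every line library was several times above the 4A+ pair. g9771 was the one of the 12 with the widest gap between the lines, at 36.02 and 30.69 RPKM in ho1C1 and 58.28 and 60.3 RPKM in ho1C2, against 4.59 and 3.82 RPKM in 4A+. Its difference between the lines, 0.82, was under 2-fold. The other 7 were g18178, g17202, g241, Cre13.g580100, Cre09.g401500, g18170 and Cre11.g481600, with differences of 2.65 to 3.41 in ho1C1 and 2.7 to 3.78 in ho1C2.

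g17202 and Cre11.g481600 were also at high levels in 4A+ that had been fed BV. g17202 had 70.32 and 80.89 RPKM in ho1C1 and 86.45 and 97.96 RPKM in ho1C2, and BV-fed 4A+ had 101.34 and 105.79 RPKM, against 9.78 and 9.23 RPKM in unfed 4A+. Cre11.g481600 had 43.32 and 57.66 RPKM in ho1C1 and 58.93 and 69.8 RPKM in ho1C2, and BV-fed 4A+ had 96.84 and 101.48 RPKM, against 6.94 and 7.27 RPKM in unfed 4A+. For both genes, the 4 line libraries without BV lay between the unfed and the BV-fed wild type libraries. Unfed hmox1 was close to the lines or above them, with 95.3 and 106.91 RPKM of g17202 and 73.74 and 80.11 RPKM of Cre11.g481600. The high level was thus shared with the unfed mutant.

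**Figure D3:**
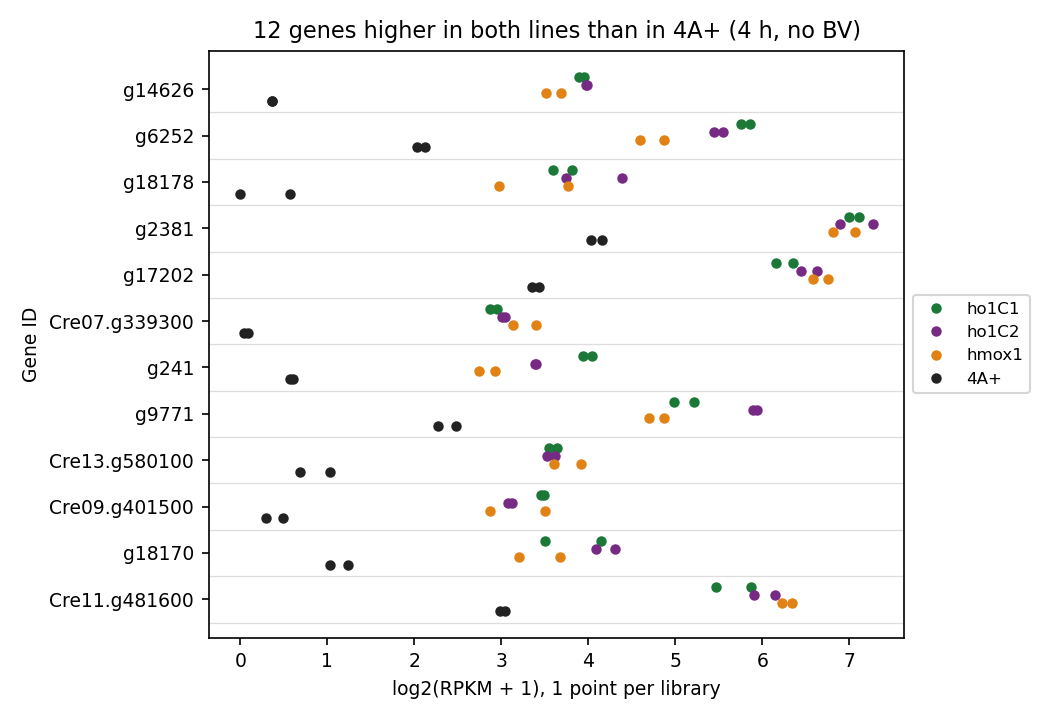
Levels of the 12 genes higher in both lines, ranked by the smaller of their 2 line differences, as log2(RPKM + 1), at 4 h without BV. Each point is 1 library, and rows within a gene are ho1C1, ho1C2, hmox1 and 4A+ from top to bottom. In all 12 genes the 4 line libraries and both hmox1 libraries lie above both 4A+ libraries.

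The levels of the 457 higher genes follow in part from how they were chosen. Their median level was 5.22 RPKM in ho1C1, 6.40 RPKM in ho1C2 and 5.45 RPKM in hmox1, against 1.075 RPKM in 4A+. In 209 of them both 4A+ libraries were under 1 RPKM, so these passed the filter only through other strains or conditions. The 68 lower genes had medians of 2.22 RPKM in ho1C1, 1.77 RPKM in ho1C2 and 3.89 RPKM in hmox1, against 12.9 RPKM in 4A+. In 16 of them all 4 line libraries were under 1 RPKM. None of the 100 genes with the highest mean level over all 20 libraries was called in either line by limma. A gene abundant in unfed 4A+ and low in most other groups, such as Cre04.g223100, falls outside that set. By mean level over the series, the share called higher in both lines was 1.32% under 2 RPKM, 4.06% from 2 to 10 RPKM, 3.97% from 10 to 50 RPKM and 2.88% at 50 RPKM or more.

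Values of hmox1 for both groups are set beside those of the lines as a description, since the genes were chosen by their difference from the same 4A+ libraries. The median log2 difference of the 457 genes was 1.35 in ho1C1, 1.59 in ho1C2 and 1.39 in hmox1, and over all tested genes that of hmox1 was 0.24. For the 68 genes the medians were -1.38, -1.54 and -1.18. Over all tested genes, the root mean square log2 difference was 0.226 between ho1C1 and ho1C2. It was 0.306 between ho1C1 and hmox1 and 0.386 between ho1C2 and hmox1, against 0.492 between ho1C1 and 4A+ and 0.567 between ho1C2 and 4A+. Between hmox1 and 4A+ it was 0.585. On this measure both complemented lines lay nearer to the mutant than to 4A+. The distance to 4A+ was smaller for ho1C1 than for the mutant, while ho1C2 and the mutant were close (0.567 and 0.585). The order of these last 2 cannot be decided here. The values were as deposited, and hmox1 had the larger median shift over all genes (0.24, against 0.18 in each line). Its replicates were also less alike, with a correlation of 0.9929, against 0.997 to 0.9979 for the other strains here.

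The BV-fed libraries, whose means entered none of these differences, showed the same strain differences for many of the genes. Between hmox1 and 4A+ with BV, 540 of all tested genes were higher (3.89%) and 138 were lower (0.995%). Of the 457 genes higher in both lines, 197 were higher there (43.1%) and none was lower. Their median difference in BV was 0.90, against 0.10 over all tested genes. Of the 68 lower genes, 33 were lower in BV-fed hmox1 than in BV-fed 4A+ (48.5%) and none was higher, with a median of -0.97. Cre17.g734700 was an example, at 2.42 and 3.06 RPKM in BV-fed hmox1, against 170.77 and 193.4 RPKM in BV-fed 4A+. Of the lower genes named above, Cre03.g162800 (-0.87), Cre03.g198250 (-0.34), g99 (-0.82) and g18140 (-0.01) were not called between these BV-fed strains. The genes that BV-fed hmox1 shared with the lines made up 36.5% of its higher calls and 23.9% of its lower calls.

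The lines also differed from 4A+ at genes that BV changed in the mutant. BV in hmox1 raised 522 genes (3.76%) and lowered 495 genes (3.57%), in libraries that entered the comparison of the lines with 4A+ through the shared spread and filter alone. Of the 522 raised genes, 113 were higher than in 4A+ in ho1C1 (21.6%, beside 4.02% of all tested genes) and 164 in ho1C2 (31.4%, beside 5.7%). Their median differences were 0.43 and 0.66. Of the 495 lowered genes, 20 were lower in ho1C1 (4.04%, beside 0.627% of all tested genes) and 37 in ho1C2 (7.47%, beside 0.815%). The medians of the lowered genes were -0.02 and -0.09, beside 0.18 over all genes in each line. Read the other way, 99 of the 457 higher genes were raised by BV (21.7%) and 8 lowered (1.75%). Of the 68 lower genes, 18 were lowered by BV (26.5%) and 5 raised (7.35%).

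**Figure D4:**
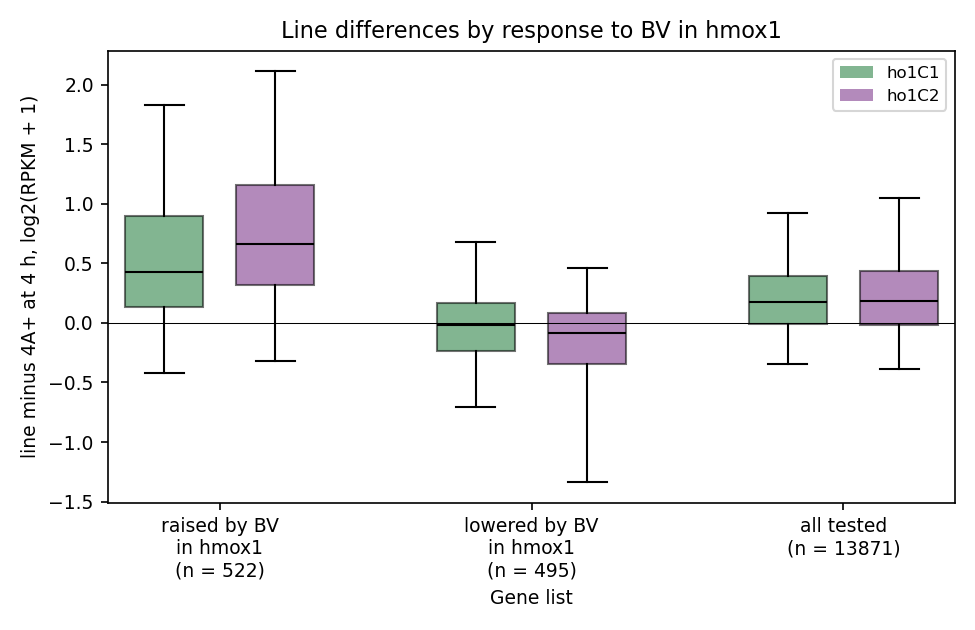
Log2 difference from 4A+ at 4 h without BV in ho1C1 and ho1C2 for the 522 genes raised by BV in hmox1, the 495 lowered, and all 13871 tested genes. Boxes span the quartiles with the median as a line, and whiskers run from the 5th to the 95th percentile of genes, which are not replicates. The raised genes have medians of 0.43 in ho1C1 and 0.66 in ho1C2, against 0.18 in each line for all genes.

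Early light responses of the lines were measured in their dark and 0.5 h libraries. After 0.5 h of light 843 genes were higher than in the dark in both lines (6.08%) and 1813 were lower (13.1%). Of the 457 genes higher than 4A+ at 4 h, 10 belonged to the higher set (2.19%) and 100 to the lower set (21.9%). With median-ratio factors that share was 12.5%, beside 6.8% of all tested genes. Of the 68 lower genes, 11 belonged to the early higher set (16.2%) and 14 to the lower set (20.6%).

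The 2 complemented lines were not equivalent. Against ho1C1, 30 genes were higher in ho1C2 (0.216%) and 34 were lower (0.245%). Of these 64 genes, 61 were called against 4A+ in at least one line, and 28 were among those called in both. Genes that far apart between the lines have to lie away from 4A+ in at least one of them. The count of 61 therefore follows in part from how the 64 were chosen. In all 11 of the shared lower genes that differed between the lines, ho1C2 was the lower one. In 16 of the 17 shared higher genes that differed, ho1C2 was the higher one. Where the lines differed at shared genes, ho1C2 was thus the line farther from wild type in 27 of 28 cases. Of the genes called against 4A+ in 1 line and not in the other, most did not differ between the lines by this test. Among those of ho1C1, 12 of 101 higher and 2 of 19 lower genes did differ, and among those of ho1C2 11 of 333 and 8 of 45 did.

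Many of the genes that set ho1C2 apart from ho1C1 were also changed by BV in hmox1. BV lowered 20 of the 34 genes that were lower in ho1C2 (58.8%, beside 3.57% of all tested) and raised 4 (11.8%), with a median change of -1.36 beside -0.11 over all tested genes. It raised 16 of the 30 genes that were higher in ho1C2 (53.3%, beside 3.76%) and lowered none, with a median change of 1.60. The hmox1 libraries entered the comparison of the lines through the shared spread and filter and not through its means. The lowered share was 47.3% with a pseudocount of 0.1 and 54.2% at 1.5-fold, and the raised share was 37.7% and 33.5%. More genes were called between the lines at either setting, and the matching shares of all tested genes were not worked out. Leaving out 1 library at a time gave lowered shares of 51.3% to 59.4% and raised shares of 42.4% to 53.3%.

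Cre16.g661750 is a case of a transcript at wild type level in one line and low in the other. It had 17.74 and 18.21 RPKM in ho1C1 and 1.5 and 2.01 RPKM in ho1C2, against 18.17 and 22.54 RPKM in 4A+. ho1C1 overlapped with 4A+ (difference -0.16, adjusted p = 0.248), and the log2 difference of ho1C2 from ho1C1 was -2.79 (SE 0.12, adjusted p = 1.27e-11, limma). BV-fed libraries had 1.99 and 1.67 RPKM in hmox1 and 2.76 and 2.57 RPKM in 4A+, close to unfed ho1C2. Cre16.g661850 behaved likewise, with 7.54 and 8.23 RPKM in ho1C1 and 0.73 and 0.83 RPKM in ho1C2, against 11.38 and 13.03 RPKM in 4A+. Its difference from 4A+ was -0.57 in ho1C1, which passed the adjusted p but not 2-fold, and -2.89 in ho1C2. Both transcripts were under 0.1 RPKM in all 8 dark and 0.5 h libraries of the lines.

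These 2 genes lie near each other, and near the shared lower gene Cre16.g662600, in the gene order of the RefSeq table (Chlamydomonas_reinhardtii_v5.5). The stretch from Cre16.g661750 to Cre16.g663450 was looked at after these values were seen. It holds 38 genes of that table, of which 26 were tested, and 4 of them were lower in ho1C2 than in ho1C1. Both ends of the stretch are themselves among these called genes, so the count follows from where the ends were set. Of all tested genes, 0.245% were lower in ho1C2. The 22 other tested genes of the stretch lay between -0.48 and 0.26 on the log2 scale, so the low levels belonged to single genes within it.

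Cre02.g102050 and Cre08.g368850 were the genes above wild type in both lines with the widest gap between them. Cre02.g102050 had 19.06 and 19.8 RPKM in ho1C1 and 135.98 and 143.73 RPKM in ho1C2, against 3.57 and 3.43 RPKM in 4A+. ho1C1 was at the level of unfed hmox1 (19.11 and 20.75 RPKM), and ho1C2 stood between that and BV-fed hmox1 (436.65 and 403.56 RPKM). The difference from 4A+ was 2.18 in ho1C1 and 4.97 in ho1C2 (SE 0.06 in each), and that between the lines was 2.79 (adjusted p = 1.99e-15, limma). Cre08.g368850 had 3.17 and 3.58 RPKM in ho1C1 and 50.19 and 52.52 RPKM in ho1C2, against 0.03 and 0.23 RPKM in 4A+. BV-fed hmox1 had 548.36 and 474.9 RPKM. The difference between the lines was 3.58 (SE 0.45, adjusted p = 0.000399, limma). This SE is wider because it takes in the spread of all groups, such as ho1C1 at 0.5 h (0.64 and 5.21 RPKM). BV-fed 4A+ had 3.08 and 3.02 RPKM of Cre02.g102050 and 2.73 and 2.64 RPKM of Cre08.g368850, far below BV-fed hmox1 for both.

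A different kind of line difference was a transcript missing from ho1C1 alone. g8412 had 0.21 and 0.91 RPKM in ho1C1 and 47.76 and 45.6 RPKM in ho1C2, against 51.39 and 47.99 RPKM in 4A+. ho1C2 differed from 4A+ by -0.09 (adjusted p = 0.752), while ho1C1 differed by -5.06 (SE 0.22, adjusted p = 1.45e-09, limma). hmox1 had 83.95 and 58.47 RPKM, so the transcript was present in the mutant. Cre08.g359200 had 0 and 0.1 RPKM in ho1C1 and 4.25 and 4.09 RPKM in ho1C2, against 3.77 and 4.05 RPKM in 4A+, and hmox1 had 7.78 and 7.99 RPKM. The opposite case was Cre16.g674133, at 3.88 and 4.01 RPKM in ho1C1 and 0.1 and 0.06 RPKM in ho1C2, and listed at 0 in both 4A+ libraries.

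**Figure D5:**
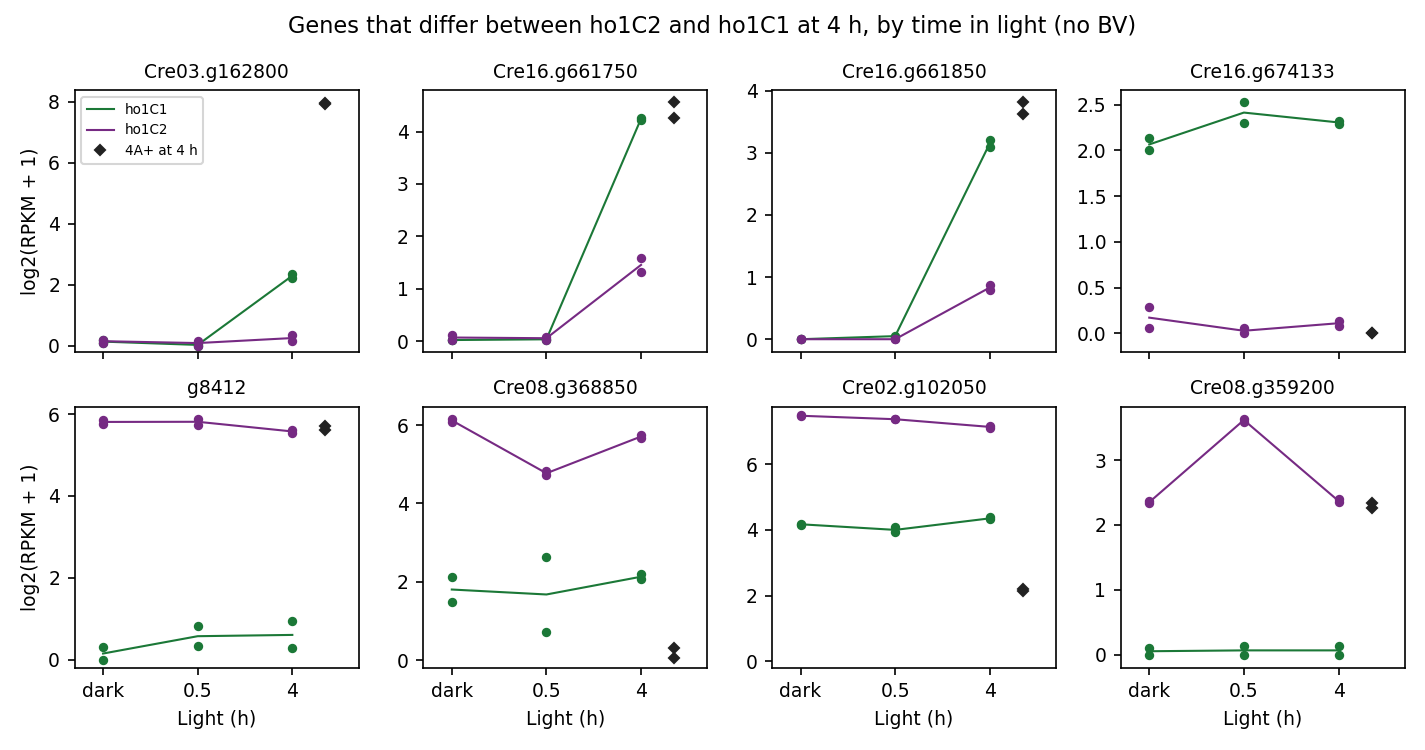
Levels in ho1C1 and ho1C2 at 3 times (dark, 0.5 h and 4 h of light) without BV, as log2(RPKM + 1), for the 4 genes with the largest difference between the lines at 4 h in each direction. Points are libraries, lines join the means of 2 libraries, and diamonds are the 4A+ libraries at 4 h. In the upper row Cre03.g162800, Cre16.g661750 and Cre16.g661850 separate at 4 h, and the other genes shown are apart at all 3 times.

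The lines were also compared in their dark and 0.5 h libraries, whose means did not enter the 4 h comparison. In the dark, 22 genes were higher in ho1C2 (0.159%) and 5 were lower (0.036%). After 0.5 h, 15 were higher (0.108%) and 4 were lower (0.0288%). Of the 30 genes higher in ho1C2 at 4 h, 12 were already higher in the dark and 9 at 0.5 h, while 1 was lower in the dark and 1 at 0.5 h. Of the 34 lower genes, 3 were lower in the dark and 3 at 0.5 h. In 9 of the 34 all 8 dark and 0.5 h libraries were under 1 RPKM, where no line difference could be called. g8412, Cre08.g368850, Cre02.g102050, Cre08.g359200 and Cre16.g674133 were apart at all 3 times. g8412 was at 0 to 0.77 RPKM in the 4 dark and 0.5 h libraries of ho1C1, while those of ho1C2 had 52.32 to 58.12 RPKM.

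Some neighbouring genes were called together. In the RefSeq gene order, which held 330 of the 457 higher and 52 of the 68 lower genes, 1 run of 3 adjacent genes was higher in both lines, Cre06.g305800, Cre06.g305850 and Cre06.g305900. Cre06.g305800 had 2.06 and 2.26 RPKM in ho1C1 and 2.41 and 1.75 RPKM in ho1C2, against 0.18 and 0.19 RPKM in 4A+. The ho1C1 call of Cre06.g305900 (1.06) was at the 2-fold threshold and was lost with median-ratio factors (0.88) and without 4A+ replicate 2 (1.00). Beyond this run, 19 adjacent pairs were higher and 2 pairs were lower in both lines. Of all tested genes, 3.29% were higher and 0.49% lower in both lines. How many adjacent genes would be called together at these shares was not worked out, so the counts do not show clustering. The lower pairs, picked after their values were seen, were Cre17.g723350 with Cre17.g723400, and Cre14.g617400 with Cre14.g617450. Cre14.g617400 differed from 4A+ by -1.57 in ho1C1 (adjusted p = 1.05e-08) and by -2.87 in ho1C2 (adjusted p = 3.4e-12, limma), while hmox1 had 359.45 and 289.91 RPKM, against 115.92 and 112.17 RPKM in 4A+.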

How the data were processed

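Single-end reads from total RNA of 20 libraries (10 groups of 2) were processed by the authors. STAR 2.3.0 and HTSeq are listed per the submitters' processing notes, while the sources used here do not give their settings, the genome build or the counting rules. The deposited table holds 1 value per gene and library, read here as RPKM from the values, since the unit is not named. The 1114 low values of 112 genes fell on whole multiples of a step (within 0.005 RPKM plus 2%), which gave relative depths of 0.536 to 1.8. Exact read totals, and so counting intervals, are unknown.

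From that table, log2(RPKM + 1) was fitted with limma 3.58.1 (R 4.3.3; trend and robust moderation) over all 20 libraries with 1 mean per group, leaving 10 residual degrees of freedom, after a filter of 1 RPKM in at least 2 libraries. It was tested on simulated data. P-values were adjusted by Benjamini-Hochberg over the 13871 tested genes within each of 12 comparisons. The comparisons and lists were chosen with earlier results of these data known. Named genes are the 12 higher and 12 lower in both lines with no overlap, ranked by the smaller of the line differences, the 4 with the largest difference between the lines in each direction, runs of 3 or more neighbours, and genes present or absent by strain. Lists by gene function could not be matched to IDs (11713 of 17737 IDs are in the RefSeq table, without names), and the targeted gene was not checked. Alternatives changed pseudocount, filter, scaling, libraries, moderation, threshold and replicate block. The replicate numbers did not pair the samples.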

Additional observations from a re-analysis of the deposited data

Results flagged for a closer look

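For 13 genes named above, the difference from 4A+ was not the same in both lines. The test was that of ho1C2 minus ho1C1 itself, by limma with adjustment over all tested genes, and each passed 2-fold. Among genes lower in both lines, ho1C2 differed from ho1C1 by -2.01 for Cre04.g223100, -2.05 for Cre03.g162800, -1.95 for Cre16.g662600 and -1.20 for g9922 on the log2 scale. The neighbours Cre14.g617400 and Cre14.g617450 differed by -1.30 and -1.15. Cre16.g661750, at -2.79, and Cre16.g661850, at -2.32, were called lower than 4A+ in ho1C2 and not in ho1C1. Cre16.g674133, at -2.20, was at 0.24 RPKM or less in the 4 h libraries of the other strains without BV. In the other direction, g8412 differed by 4.97 and Cre08.g359200 by 2.3, both of them at 0 to 0.91 RPKM in ho1C1. Cre08.g368850, at 3.58, and Cre02.g102050, at 2.79, were above 4A+ in both lines and more so in ho1C2. Groups of 2 libraries are too small for a check of single outlying libraries.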

How the results depend on the processing

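With 2 libraries a group, unknown read totals and a scale that compresses low values, small changes of weakly expressed genes could not be resolved, and counts depended on the threshold. Calls are given as higher and lower, for ho1C1 against 4A+, ho1C2 against 4A+, both lines, and ho1C2 against ho1C1. A pseudocount of 0.1 gave 1637 and 145, 1950 and 193, 1456 and 119, and 130 and 55. A threshold of 1.5-fold gave 1815 and 268, 2246 and 330, 1505 and 211, and 173 and 107. Genes with a mean of at least 5 RPKM (7119) gave 335 and 44, 365 and 67, and 271 and 36 against 4A+, since fewer genes were tested. Median-ratio factors gave 133, 199 and 114 lower genes. The share of genes higher in both lines that fell at 0.5 h was 46.3% with the pseudocount of 0.1, 12.5% with the factors and 51.1% at 1.5-fold, beside 24.5%, 6.8% and 31.7% of all tested genes, and that of the lower genes was 13.2% with the factors. Of the genes raised by BV in hmox1, the share higher in ho1C1 was 38.9% with the pseudocount of 0.1, 36.2% with the mean filter and 34.1% at 1.5-fold, and in ho1C2 51.8% with that pseudocount. Of the genes lowered by BV, 7.1% in ho1C1 and 16.5% in ho1C2 were lower with the factors. Of the genes higher in ho1C2 than in ho1C1, 33.5% were raised by BV at 1.5-fold. The share already higher in the dark was 23.1% with the pseudocount of 0.1, 20% with the mean filter and 15.6% at 1.5-fold, and at 0.5 h 17.3% at 1.5-fold. Of the genes lower in ho1C2, 4.3% were lower in the dark and 4.3% at 0.5 h with the mean filter, and 15.9% at 0.5 h at 1.5-fold. Beyond the construction of the filter and the thresholds, the cause was not tested. All-gene shares for BV in hmox1, and for ho1C2 against ho1C1 in the dark and at 0.5 h, were not worked out under the alternatives. Leaving out 1 library at a time gave 442 to 478 higher and 65 to 71 lower genes in both lines. Deviations of same-numbered libraries correlated at -0.01 to 0.148 between groups, so the numbers were not taken as pairs. The replicate block gave 557 and 87 calls in ho1C1, and 457 and 68 in both, and changed no call of a named gene. The 6 libraries alone (which hold no BV-fed, dark or 0.5 h group), no filter and limma without trend or robust moderation kept every count within 1.5 times. Of 85 differences of named genes, none reversed under any alternative run, and 1, Cre06.g305900 in ho1C1, lost its call with the factors and without 4A+ replicate 2. With the mean filter 60 of the 85 could be computed.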
